A study of Populus tremula x Populus alba with 6 samples.

Results

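PtrbHLH011 is a poplar transcription factor of the basic helix-loop-helix (bHLH) family. The regions described here are 1676 of its binding peaks on the P. tremula chromosome set of a hybrid poplar. Each was assigned to a gene to which no peak on the P. alba set was assigned. They were chosen from the measured peak lists: each gene identifier of the P. tremula table was looked up in the P. alba table, and a peak was kept where the identifier had no P. alba row of any annotation class. The 1676 peaks belong to 1510 genes, out of 17040 peaks at 12487 genes in the P. tremula table, so they are 9.84% of its peaks. Because presence in the tables chose these peaks, their number and strength are given as descriptions, without tests, and the other 15364 P. tremula peaks, at 10977 genes, are given only for scale.

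The hybrid was Populus tremula x Populus alba, and the material was mesophyll protoplasts, leaf cells whose walls had been digested away. They transiently expressed PtrbHLH011-10xMyc, a fusion of the factor with repeated Myc tags, and carried no stated treatment. The labels name 3 ChIP libraries made with an anti-Myc antibody and 3 input libraries with no antibody, all from cells carrying the fusion. The factor was therefore supplied from outside the genome in all libraries, and the promoter that drove it is not given in the sources used here. The peak tables carry 1 value per peak and 1 name tag that matches no library label, so no value belongs to 1 library, and neither library depth nor spread between replicates could be given. The labelled cell type could not be checked against markers, because the tables hold no expression values.

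The bHLH factors bind DNA as dimers through a basic region and as a family are known for recognising E-box motifs. In Arabidopsis, several bHLH proteins form the network that turns iron uptake on when iron is short, and bHLH11 is known there as a repressor within it. A hybrid tree carries a parental copy of most genes from each species, and the sequence around these copies can differ. In ChIP-seq, fragments are aligned to the genome and a peak is called where their pile-up exceeds the local background. A gene absent from one table is a gene to which no called peak was assigned there. This is not the same as a gene without reads, since a peak at its place can be assigned to a neighbour. Whether the annotation of the other set holds each such gene could not be checked.

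The first question was whether the peaks were missing from the P. alba table as places or only as gene names. A peak takes the identifier of the nearest gene start, so a small shift can move it to a neighbour. Each peak was placed by its distance from the nearest start of a gene listed in both tables, its own gene left out, and the nearest P. alba summit to the same distance from that start was found. Positions were carried between the chromosome sets only by this distance, without aligning their sequences. This takes the stretch between start and peak to be equally long in both sets. For peaks at P. tremula-only genes the stretch had a median of 18274 bp (25th to 75th percentile 9687 to 33983 bp). Distances from a matching place are therefore approximate. Of the 1630 peaks at P. tremula-only genes that had such a start on their sequence, 14 had a P. alba summit within 100 bp of the matching place (0.859%, exact 95% binomial interval 0.470 to 1.44%). The P. tremula table as a whole had a P. alba summit there at 67.9% of its peaks, and the 15255 other peaks at 11446 (75.03%). The gene identifiers of those other peaks are in both tables by definition. A P. alba peak at the place of a chosen peak would usually carry its identifier and so remove it from the choice. The gap between these shares is therefore largely built into the choice and tests nothing. The 14 only count the peaks whose place had a P. alba peak under another identifier.

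The nearest P. alba summit was distant at most of these places. A P. alba peak close to such a gene would usually carry its identifier, so these distances too are largely built into the choice. The median distance from the matching place to the nearest P. alba summit was 13645 bp for the peaks at P. tremula-only genes (25th to 75th percentile 6948 to 25586 bp), against 44 bp for the other peaks (18 to 100 bp). Within 1000 bp, 39 of the 1630 had a P. alba summit (2.39%, 1.71 to 3.26%), against 13800 of the 15255 others (90.5%). The mirrored set, chosen by the same rule, was 2711 peaks at 2426 genes that are listed on P. alba only. It had a P. tremula summit within 100 bp at 10 of 2657 places (0.376%, 0.181 to 0.691%). Peak numbers that have no peak analysed here did not fall inside any listed sequence. It follows that none lay between the P. alba peaks on either side of the 1578 places where this could be looked up. Peaks on unplaced scaffolds are less certain in this respect, since numbers are missing between those sequences.

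**Figure D1:**
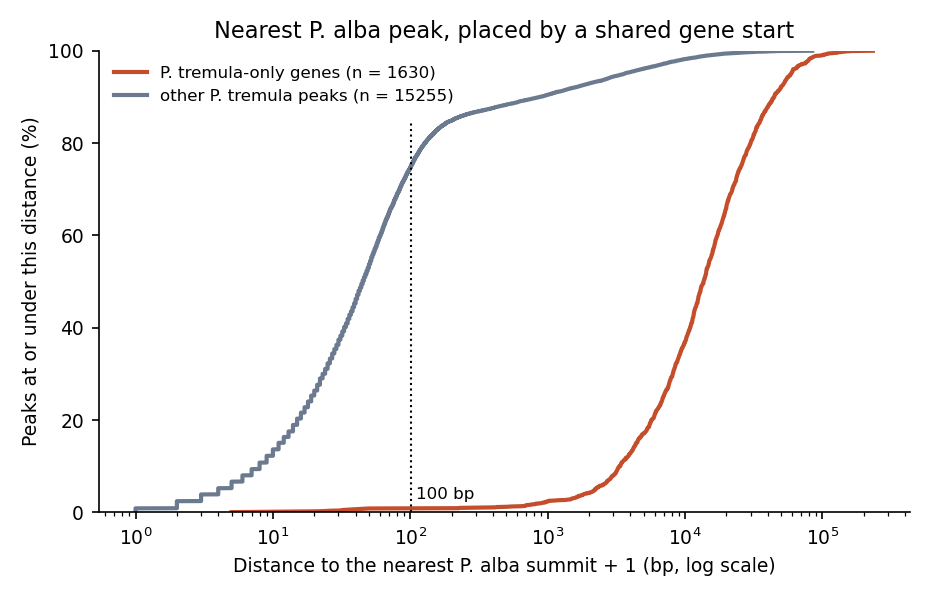
Cumulative share of P. tremula peaks (y axis, percent) with a P. alba summit at or under a given distance from the matching place (x axis, bp plus 1, log scale). At 100 bp (dotted line) the line for P. tremula-only genes is at 0.859%, and the line for the other peaks is at 75.03%.

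The 14 exceptions were peaks with a P. alba counterpart under another gene identifier, all within 49 bp of the matching place. In 9 of them the summit read count was identical in both tables. The highest fold among them was on chromosome 1 at 12645823 to 12646202, where 66 reads gave 7.80 on P. tremula. Its P. alba counterpart (12642261 to 12642616), with 68 reads at 8.23-fold, was assigned to a neighbouring gene. The deepest, in an exon on chromosome 7 (10266724 to 10266887), held 284 reads at 2.59-fold on P. tremula, against 558 reads at 2.09-fold on P. alba.

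At Potri.016G049200 all peaks of a gene changed name together. This gene of chromosome 16, which spans 3145152 to 3150638 on P. tremula, held 4 of the 14 exceptions, and their read counts on P. tremula were 6, 5, 7 and 6, the same counts as on P. alba. On P. tremula they were classed as distal intergenic, promoter, exon (exon 10 of 11) and intron. On P. alba all 4 were classed as distal intergenic and assigned to the gene on either side, although 3 of the summits lay inside the gene on P. tremula. No P. alba row named this gene, so whether the P. alba annotation holds it could not be told. Without all 14 exceptions, 1662 peaks at 1501 genes were left.

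The annotation class leaned away from genes. Promoter peaks here are those the deposited annotation places up to 3 kb before or past a gene start. Promoters held 891 of the 1676 peaks (53.2%, 50.7 to 55.6%), against 61.7% of the other P. tremula peaks (60.9 to 62.5%). Distal intergenic regions held 622 (37.1%, 34.8 to 39.5%), against 25.8% of the others (25.1 to 26.5%). Exons outside promoters held 50 peaks (2.98%, 2.22 to 3.91%), against 5.79% of the others (5.43 to 6.17%). Introns (3.34%) and regions just downstream of genes (3.40%) differed less from the others (3.81% and 2.88%), with intervals that overlapped. The mirrored P. alba-only peaks lay between both P. tremula groups, with 59.0% in promoters, 29.8% distal and 4.32% in exons. The intervals take peaks as independent and cover counting error only.

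**Figure D2:**
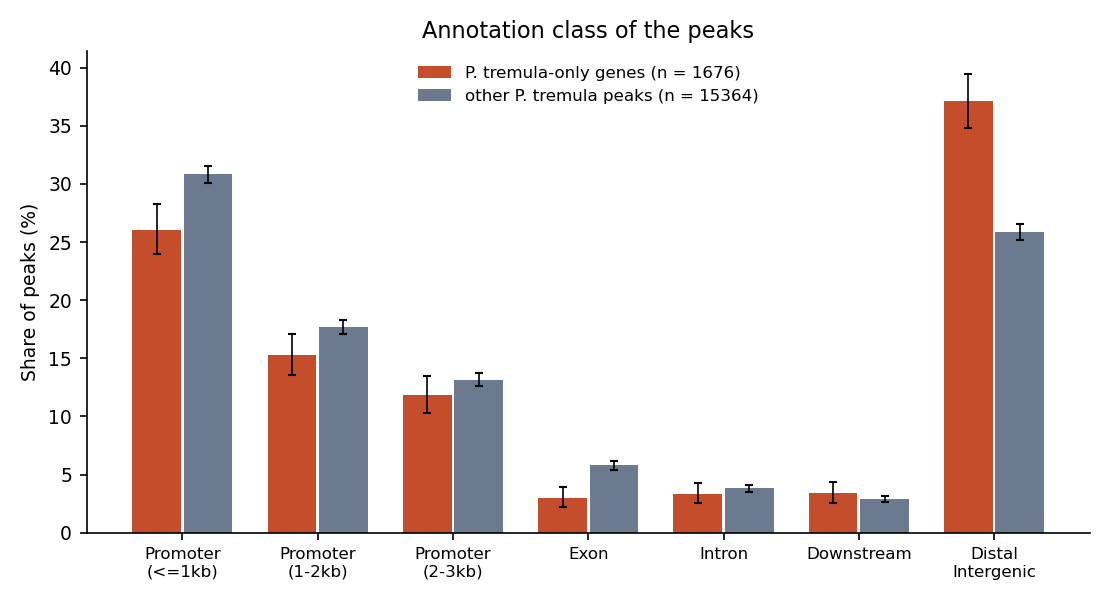
Share of peaks in each annotation class (y axis, percent) for peaks at P. tremula-only genes and for the other P. tremula peaks, with exact 95% binomial intervals as error bars. The distal intergenic bars stand at 37.1% and 25.8%, and the exon bars at 2.98% and 5.79%.

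The number of peaks per gene moved with the choice. Peaks whose gene had a single P. tremula peak were P. tremula-only in 14.7% of cases, and those whose gene had 4 or more in 0.919%. Restricted to genes with a single P. tremula peak, distal intergenic peaks made up 31.9% of those at P. tremula-only genes (29.4 to 34.4%), against 17.04% of the others (16.2 to 17.9%). Shallow peaks, with 5 to 9 reads at the summit, showed the same order, at 31.4% (28.8 to 34.0%) against 18.9% (18.2 to 19.6%). Among peaks of 20 reads or more the distal shares were 52.6% (43.8 to 61.4%) and 48.7% (46.4 to 51.0%), intervals that overlap.

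Summits lay inside the assigned gene less often. The share was 26.8% of the peaks (24.7 to 29.0%), against 38.7% of the others (37.9 to 39.5%). Among P. alba-only peaks it was 34.0% (32.3 to 35.9%). The median distance from the summit to the gene, taken as 0 inside it, was 1622 bp, against 532 bp for the others. Over 10 kb from the gene lay 9.84% (8.46 to 11.4%), against 9.24% (8.79 to 9.71%), with intervals that overlapped. Within the distal intergenic class the median distance was lower, at 5978 bp, against 6842 bp. Within 250 bp of the start lay 9.67% of the summits (8.29 to 11.2%), against 12.1% (11.6 to 12.7%). Of the promoter peaks at P. tremula-only genes 43.7% lay upstream of the start (40.4 to 47.0%), against 38.4% of other promoter peaks (37.4 to 39.3%). The assigned genes were shorter, with a median annotated length of 2079 bp over the 1510 genes, against 2686 bp over the 10977 others. P. alba-only genes had a median of 2337.5 bp. A shorter gene offers less body for a summit to fall in, and how far this sets the share inside genes was not tested.

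**Figure D3:**
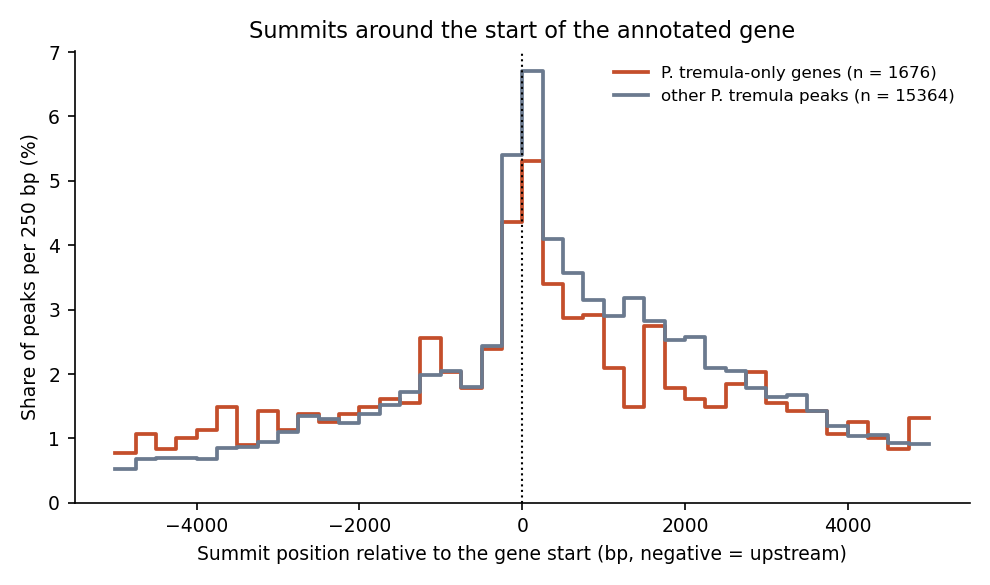
Share of summits per 250 bp bin (y axis, percent) by position relative to the start of the assigned gene (x axis, bp, negative upstream) for peaks at P. tremula-only genes and for the other P. tremula peaks. Both lines peak in the bin just past the start, and 9.67% and 12.1% of the summits lie within 250 bp of it.

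Exon and intron peaks need care, because the class and the gene identifier can name different genes. Of the 106 exon or intron peaks at P. tremula-only genes, 26 lay inside a gene other than the one assigned by the nearest start. In 14 of these the gene that held the peak did have a P. alba row. The same count was not made for the other exon or intron peaks.

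Most peaks were shallow, as in the rest of the table. The median summit held 7 reads (25th to 75th percentile 6 to 9), the same as in the other peaks. The upper tails differed: 16.9% held 10 to 19 reads (15.2 to 18.8%), against 9.997% of the others (9.53 to 10.5%), and 7.94% held 20 or more (6.69 to 9.33%), against 12.05% (11.5 to 12.6%). Peaks of 5 reads, the lowest count in either table, made up 344 of the 1676 (20.5%, 18.6 to 22.5%), against 15.8% of the others. They made up 24.4% of the P. alba-only peaks. The median fold over the caller's background was 3.45, against 3.53, and the median width was 113 bp, against 130 bp. A fold of 5 or more was reached by 85 peaks (5.07%), against 8.08% of all P. tremula peaks. A q value, the caller's p value adjusted for multiple testing, at or under 0.05 was found at 1081 peaks (64.5%), against 72.9% of all P. tremula peaks. At or under 0.01 there were 558 (33.3%), against 40.1%. Strength decides whether a peak is called at all, so these values go with the choice and stand as a description.

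The edge of the choice is the weakest P. alba peak that was called, and no peak of either table held fewer than 5 reads. Just outside the choice lay 1405 P. tremula peaks at 1321 genes that had a single P. alba peak of 5 reads. Their median was 5 reads and a fold of 3.02, and the 344 chosen peaks of 5 reads also had a median fold of 3.02. These differ from the chosen peaks by 1 shallow P. alba peak.

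Weak peaks were not the only ones on P. tremula-only genes, and the share did not run evenly with depth. It was 12.4% of P. tremula peaks of 5 reads (11.2 to 13.7%) and 8.55% of those of 6 reads (7.80 to 9.34%). At 10 to 14 reads it reached 16.8% (14.8 to 18.96%), or 220 of 1308 peaks. At 20 to 49 reads it was 6.68% (5.35 to 8.22%). From 100 to under 200 reads it was 14.7%, on 16 of 109 peaks, with a wide interval of 8.63 to 22.7%. From 500 reads on it was 4.85% (2.35 to 8.75%), or 10 of 206 peaks. P. alba-only peaks made up 20.2% of P. alba peaks of 5 reads, 14.1% at 6 reads and 17.7% at 10 to 14 reads.

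The background under the peaks moved with this share. Background reads were recovered from the deposited pileup and fold as (pileup + 1) / fold − 1. Background was at its lowest value, 0.985 reads, at 49.9% of the peaks on P. tremula-only genes (47.5 to 52.3%), against 57.4% of the others (56.7 to 58.2%). At background over 1.5 and up to 3 reads, 15.4% of P. tremula peaks were on P. tremula-only genes (13.8 to 17.1%), against 8.65% at the lowest background (8.10 to 9.23%). Over 3 reads it was 9.85% (8.71 to 11.1%). P. alba-only peaks made up 19.8% of P. alba peaks over 1.5 and up to 3 reads, 13.4% at the lowest background and 10.7% over 3 reads; the first of these ranges was the highest in both tables, and the order of the other ranges differed. The part of the background in the choice was not tested.

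**Figure D4:**
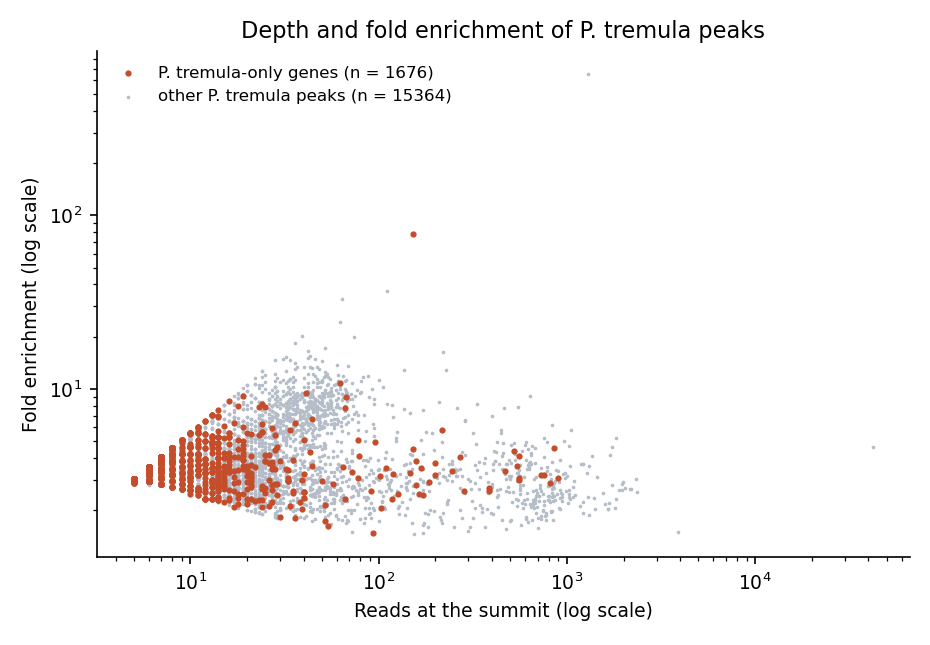
Fold enrichment (y axis, log scale) against reads at the summit (x axis, log scale) for each P. tremula peak, with peaks at P. tremula-only genes drawn on top of the others. A single chosen peak, at a fold of 77.6, stands clear of the rest, and the chosen peaks of 500 to 901 reads lie at folds of 2.87 to 4.56.

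The highest fold stood alone. It was found 595 bp upstream of Potri.003G055500 on chromosome 3, where the peak (8197694 to 8197775) reached a fold of 77.6 on 153 reads. Only 1 other P. tremula peak had a higher fold. The background under it was at the lowest value, and the peak was 82 bp wide, close to the smallest width in the table (81 bp). No other P. tremula summit lay within 57625 bp. The nearest P. alba summit was 14079 bp from the matching place and held 5 reads. That place was set from a gene start 59007 bp from the peak, so it is approximate. The gene is 303 bp long, and the tables pair neither it nor any other identifier with a gene name or function.

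Next in fold came peaks of 8 to 11 fold on several sequences. A peak at the start of a short gene on scaffold_570 (12911 to 13232) reached a fold of 10.8 on 62 reads. On chromosome 5 (23889265 to 23889484), 2932 bp upstream of a gene, 41 reads gave a fold of 9.44. Of 67 reads, a distal peak on chromosome 8 (15166826 to 15167002) reached a fold of 8.97 and lay 24059 bp upstream of its gene. These 3, with the peak on chromosome 3, were the deepest of the 12 of highest fold apart from the peak on chromosome 1 that had a P. alba counterpart.

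The other peaks of high fold held 14 to 25 reads. On scaffold_1425 (1056 to 1231) 19 reads gave a fold of 9.09. On chromosome 6 (17741923 to 17742054) 16 reads gave 8.56, and on scaffold_25 (292547 to 292663) 24 reads gave 8.14. On chromosome 10, 18 reads gave a fold of 7.98 at 9883641 to 9883758. These sat over backgrounds of 0.985 to 2.07 reads.

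Chromosome 17 had a pair of such peaks, at 6296704 to 6296965 (25 reads, fold 7.88) and at 1883256 to 1883402 (14 reads, fold 7.56). On chromosome 15, a peak 1643 bp inside its gene (10296083 to 10296211) reached a fold of 7.82 on 23 reads, and its nearest P. alba summit was 4172 bp from the matching place. Folds of 10 or more were found at 2 of the 1676 peaks (0.119%), against 0.628% of all P. tremula peaks.

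The deepest peaks had modest folds. A summit of 100 reads or more was found at 34 of the 1676 peaks (2.03%, 1.41 to 2.82%), against 2.52% of all P. tremula peaks. The 34 had a median fold of 3.203 over a median background of 65.6 reads. At the 395 other P. tremula peaks of this depth these were 2.798 and 156.4 reads. Of the 34, 20 were promoter peaks and 12 distal, a split that was not counted for the other peaks of this depth. Apart from the peak on chromosome 3, all had a background of at least 30.6 reads. At 3 of the 34 a P. alba summit lay within 1000 bp of the matching place.

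At several deep peaks the nearest P. alba peak was shallow and distant. On chromosome 4 (9040394 to 9040571), 1902 bp upstream of its gene, 857 reads gave a fold of 4.56, and the nearest P. alba summit, 27855 bp away, held 9 reads. A fold of 4.09 on 554 reads was found on chromosome 17 (11022916 to 11023070), and the nearest P. alba summit held 7 reads at 54747 bp. On chromosome 1 (30778290 to 30778535), 760 reads gave a fold of 3.202, and the nearest held 6 reads at 29327 bp. The peak was classed in an intron of its gene, but its summit (30778423) lay past the listed gene end (30776187). The gene starts that set the matching places on chromosomes 4, 17 and 1 lay 25741, 53112 and 28783 bp from the peaks.

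A distal peak on chromosome 13 (12263147 to 12263398) was alike, with 725 reads, a fold of 3.17 and the nearest P. alba summit of 5 reads at 16283 bp. Its matching place was set from a gene start 36759 bp from the peak. The tables hold no count of P. alba reads at the matching places themselves, so how many lay there below the caller's threshold cannot be told.

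Other deep peaks sat within clusters that had peaks on both sets. On chromosome 19 a chain of 15 P. tremula peaks, no more than 10000 bp apart, ran from 3181721 to 3198915, and 4 of them were on P. tremula-only genes. The matching P. alba interval had 12 peaks, 1 of them on a P. alba-only gene. At Potri.019G028000 the peaks at 3186392 to 3186618 and 3186995 to 3187379 held 543 and 901 reads, at folds of 3.58 and 3.07. The nearest P. alba summit to both held 190 reads, 817 and 1479 bp from the matching places. A peak of 522 reads and fold 4.38 on another gene of the chain (3193006 to 3193189) had a P. alba summit of 606 reads 2390 bp away.

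A chain of the same kind on chromosome 13 ran through deep peaks of both sets. From 14687405 to 14762420 it held 50 P. tremula peaks with a median of 840.5 reads, of which 2 were on P. tremula-only genes, and the matching P. alba interval held 51 peaks. The deeper of the pair (14696862 to 14697218) held 814 reads at a fold of 2.87, and a P. alba summit of 690 reads lay 1785 bp from the matching place. Past the end of this chain, between 14779421 and 14783437, lay 4 more deep peaks on 2 P. tremula-only genes, with 168, 554, 163 and 270 reads in order of position. Their nearest P. alba summits held 400 to 842 reads, 759 to 2372 bp from the matching places. In such clusters, absence of a gene from the P. alba table does not mean that its neighbourhood lacked a P. alba peak.

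Most genes had a single peak, at 90.5% (88.9 to 92.0%), against 74.4% of all genes with a P. tremula peak. Among P. alba-only genes the share was alike, at 90.9%. As said above, the number of peaks per gene goes with the choice. Of the 1510 genes 1367 had 1, 124 had 2, 16 had 3, 2 had 4 and 1 had 5. The gene with 5 was Potri.001G212900 on chromosome 1, which spans 21463500 to 21468534 on the plus strand. Its peaks formed a row upstream of the start, with summits at −4928, −4232, −3529, −2044 and −1330 bp. They held 9, 8, 7, 10 and 8 reads, at folds of 3.71 to 4.39. The nearest P. alba summit, of 5 reads, was at least 16033 bp from any of the matching places. Besides the gene on chromosome 16 described above, a gene of 195 bp on chromosome 5 had 4 distal peaks between 8166307 and 8169600, with 9, 12, 7 and 6 reads.

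Some peaks on P. tremula-only genes were neighbours along the chromosome. No such count was made for other peaks or for the P. alba-only set, so there is no scale beside it. Read in order of position, the 1676 peaks fell into 1278 uninterrupted runs, and 673 peaks had another such peak next to them. Runs of 5 or more numbered 14, and 5 of these were on chromosome 17. In 10 of the 14 no P. alba summit lay in the matching interval. The longest run had 7 peaks at 3 genes on chromosome 3 (19100919 to 19157612), with 8 to 27 reads. It covered 56694 bp, and no P. alba summit fell in the matching interval. Another was a row of 5 peaks at 5 genes on chromosome 12 (2134347 to 2212699), also with no P. alba summit. Peaks of the same gene enter the choice together, so runs and the lack of P. alba summits in them follow partly from the rule. Neighbouring peaks share a gene or a stretch of sequence and are not separate observations.

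Chromosomes differed in their share. Chromosome 17 had the highest, with 102 of its 603 P. tremula peaks on P. tremula-only genes (16.9%, 14.01 to 20.2%). Chromosome 19, which carries the sex-determining region in poplars, followed with 73 of 510 (14.3%, 11.4 to 17.7%), and unplaced scaffolds had 135 of 822 (16.4%, 13.95 to 19.1%). The lowest shares were on chromosome 9 (6.13%, 4.37 to 8.32%) and chromosome 2 (6.23%, 4.93 to 7.75%). The same sequences were also high for P. alba-only peaks, at 20.1% on chromosome 17, 21.5% on chromosome 19 and 21.97% on scaffolds, against 14.3% of the P. alba table as a whole.

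The densest 500000 bp window was on chromosome 17 (1500001 to 2000000), where 13 of 25 P. tremula peaks were on P. tremula-only genes. The window of the same bounds on P. alba had 9 of 23 on P. alba-only genes. On chromosome 1, 20000001 to 20500000, it was 9 of 20 P. tremula peaks, and 1 of 10 P. alba peaks. The windows have the same numbers but not the same sequence in both sets, so they are set side by side only as a guide.

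**Figure D5:**
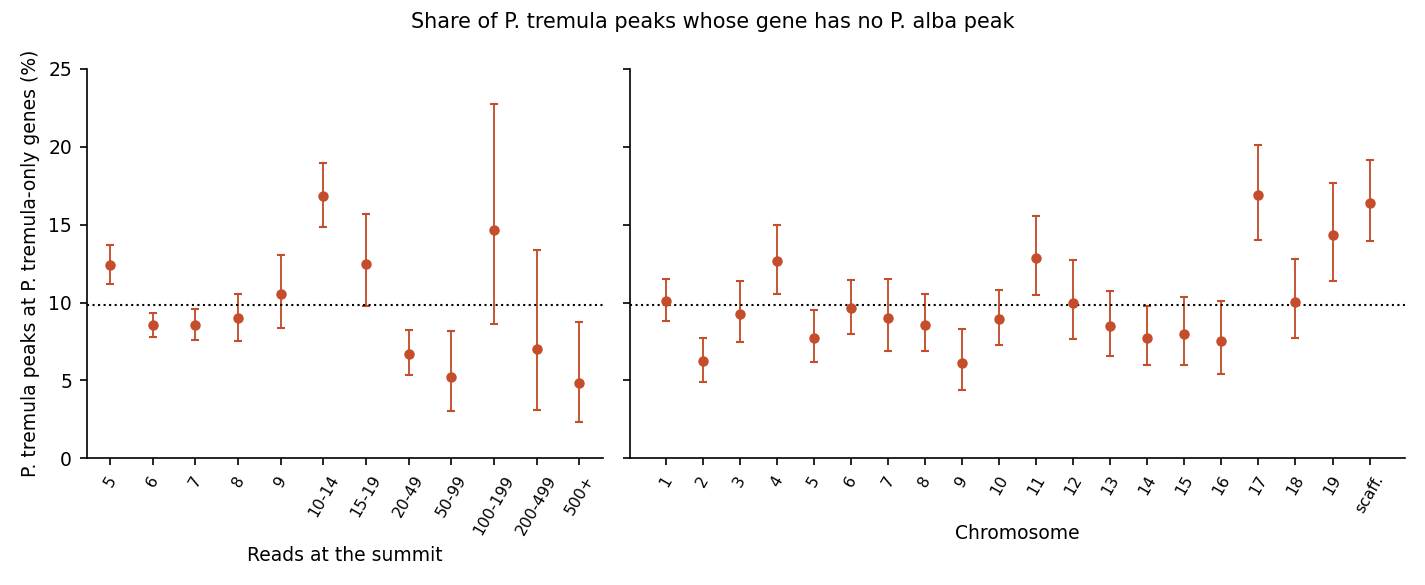
Share of P. tremula peaks that are on P. tremula-only genes (y axis, percent) by reads at the summit (left) and by chromosome (right), with exact 95% binomial intervals and the share over the whole table, 9.84%, as a dotted line. Chromosome 17 stands at 16.9% and peaks of 10 to 14 reads at 16.8%.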

How the data were processed

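Values came from 2 deposited peak tables of the whole series. The submitters' processing notes name the aligner BWA (0.7.17.2), the peak caller MACS2 (2.2.7.1) and the annotation tool ChIPseeker (1.18.0). The build, annotation release, calling options and pooling of libraries are not given in these sources. The columns used hold, per the file headers, a pileup signal, the fold ratio over background and −log10 q values. Depth per library is unknown. Each peak stands in 2 rows of its deposited table and was counted once. With Python 3.11.15 and scipy 1.17.1, shares were given exact (Clopper-Pearson) 95% intervals, which cover counting error only. The choice of peaks and the placing were tested on a copy of the P. tremula peaks, with some genes removed and positions shifted by a slow drift. That copy held no larger insertions or deletions and no differences in annotation. It therefore cannot show how well the placing works between the real sets. The peaks named are the 12 of highest fold, the next 8 by q value and the 3 genes with most peaks. Others were chosen after their values were seen: the exceptions with a P. alba counterpart and the clusters. Members, limits and lists were chosen with earlier results of these data known. Lists of iron, cell wall, transcription factor, photosynthesis and stress genes were not counted and no sequence is printed, because no gene names or genome were used here. No ChIP against input test could be made without values per library.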

Additional observations from a re-analysis of the deposited data

How the results depend on the processing

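Of 57 alternative values, 40 stayed within the limits set (1.5 times for counts, the exact interval for shares) and 17 moved. A q limit on both tables also removed P. alba peaks, so it brought in peaks that were not among the 1676. At q at or under 0.05 it gave 1597 peaks, while 1081 of the 1676 passed that limit. Folds of 5 or more were then at 6.51% of the peaks and 20 reads or more at 9.83%, against 5.07% and 7.94% as reported. With q at or under 0.01 in both, 1157 peaks were chosen. These shares were 11.7% and 15.99%, promoters held 46.8% and distal regions 45.2%. With that q limit on P. tremula alone, 558 peaks at 512 genes were left, 43.2% in promoters, 49.6% distal and 1.61% in exons. These last counts fell because fewer P. tremula peaks were kept. Counting only promoter rows in both tables gave 1074 peaks, more than the 891 promoter peaks as reported. Here P. alba rows of other classes no longer excluded a gene. Genes with 1 P. tremula peak gave 58.0% in promoters and 31.9% distal, and peaks of 5 to 9 reads, an alternative chosen after seeing the data like the removal of the 14 exceptions, 57.98% and 31.4%. The authors' distance column put 11.3% within 250 bp of a start, since it measures from the peak's edge. The cause of the other shifts was not tested. The share with a P. alba summit at the matching place stayed between 0.542% and 1.17%, over settings that partly held other peaks. No paired analysis was possible because values per replicate were not at hand. Leaving out a replicate was likewise not run.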
